A study of Mus musculus with 5 samples.

Results

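In mouse embryonic stem cells, 6094 of the 24235 H2AK119ub peaks called in the wild type lay in a protein-coding gene or within 2 kb of its ends, had no RYBP peak on them and were overlapped by no H2AK119ub peak of the DDX5 knockout. H2AK119ub is histone H2A with a single ubiquitin on a lysine of its tail, and RYBP is a subunit of the complexes that place it. The peaks were chosen by these positions alone, from peaks narrower than 5 kb on the autosomes other than chromosomes 6 and 8, with an overlap of 1 bp or more counted as an overlap. The choice therefore used the absence in the knockout. Of the 10306 genic wild-type peaks without RYBP that met the other conditions, 59.1% were absent in the knockout, and of all wild-type H2AK119ub peaks 51.1% were. Both shares describe the choice and nothing is read from them.

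The line was MPI-II, an embryonic stem cell line, used at passages 13 to 18, grown on feeder cells in serum with LIF, the MEK inhibitor PD0325901 and the GSK3 inhibitor CH99021. All groups shared these conditions. The knockout was a monoclonal line made from MPI-II by cutting exon 2 of Ddx5 with a nickase form of Cas9 and a pair of guides, so it represents 1 clone. Chromatin immunoprecipitation and sequencing (ChIP-seq) gave 1 library of H2AK119ub in the wild type, 1 of H2AK119ub in the knockout and 1 of RYBP in the wild type, the last with an antibody sold under the alias DEDAF, and the 2 input libraries were not analysed here. With 1 library in each group, differences between genotypes are unreplicated and carry no p-value. The authors' lists hold positions only, so read depth is unknown. Intervals are 95% intervals that cover counting error only, and peaks of 1 library or 1 gene are not replicates.

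Polycomb repressive complex 1 (PRC1) carries the ubiquitin ligases RING1A and RING1B, which place H2AK119ub. Its variant forms contain RYBP or its relative YAF2, and RYBP itself binds H2AK119ub, which links existing mark to further deposition. In embryonic stem cells these complexes are best known at CpG-rich promoters of developmental genes, while a thinner layer of the mark is spread through gene bodies and between genes. DDX5 is a DEAD-box RNA helicase.

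The 3 lists differed in size as well as in place. The wild-type H2AK119ub list had 24235 peaks with a median width of 1360 bp and covered 45.9 Mb, the knockout list had 20994 peaks with a median of 1083 bp and covered 30.6 Mb, and the RYBP list had 9564 peaks over 17.2 Mb. A shallower or less enriched knockout library and less mark in the knockout cells cannot be told apart from these positions. Ddx5 hosted none of the 6094 peaks: it held no H2AK119ub peak in either genotype and 2289 bp of RYBP peak. Rybp, on chromosome 6, was outside the rule.

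Sequence was at hand for the 300 bases around gene starts (250 before and 50 after, RefSeq, GRCm38.p6, the build also called mm10). The windows came from 14779 of the 18493 eligible genes, so peaks at the starts of the other genes are not counted. Such a window was touched by 233 of the 6094 peaks (3.82%, interval 3.37 to 4.33), so the sequences show the part of the group that reaches a start. Those below are the gene-strand windows of genes under wild-type-only peaks. Every CpG is in capitals, because CpG content differed between windows under peaks with RYBP and windows under peaks without it. Prr22 lies under one of the widest peaks at a gene end, chr17:56767613-56771845. Slc1a7 encodes a glutamate transporter and Pacsin3 a membrane-shaping endocytic protein. Cldn14, a tight-junction claudin, was chosen after its values were seen, as the window with the CpG ratio closest to the group's median among those that lie wholly inside a peak, without predicted genes. Rnf39 was chosen by the same steps from peaks that were also absent in the knockout but carried RYBP.

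Prr22 (chr17:56770026-56770325, plus strand): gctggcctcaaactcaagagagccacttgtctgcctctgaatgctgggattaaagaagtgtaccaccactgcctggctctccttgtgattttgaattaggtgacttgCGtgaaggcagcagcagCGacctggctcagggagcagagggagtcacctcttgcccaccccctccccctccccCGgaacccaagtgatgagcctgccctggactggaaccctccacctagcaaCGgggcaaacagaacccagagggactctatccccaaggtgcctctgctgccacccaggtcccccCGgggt
Slc1a7 (chr4:107968156-107968455, plus strand): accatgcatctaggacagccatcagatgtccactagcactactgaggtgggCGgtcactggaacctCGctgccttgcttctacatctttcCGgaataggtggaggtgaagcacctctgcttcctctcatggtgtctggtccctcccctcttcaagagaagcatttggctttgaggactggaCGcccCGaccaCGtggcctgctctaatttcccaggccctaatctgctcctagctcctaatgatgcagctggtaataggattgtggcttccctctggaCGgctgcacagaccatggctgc
Pacsin3 (chr2:91256563-91256862, plus strand): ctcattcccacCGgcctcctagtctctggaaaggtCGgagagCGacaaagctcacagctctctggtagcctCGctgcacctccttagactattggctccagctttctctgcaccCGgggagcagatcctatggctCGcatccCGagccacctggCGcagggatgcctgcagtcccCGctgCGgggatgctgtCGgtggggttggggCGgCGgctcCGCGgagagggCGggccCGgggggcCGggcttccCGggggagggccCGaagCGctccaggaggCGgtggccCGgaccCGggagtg
Cldn14 (chr16:93929768-93930067, minus strand): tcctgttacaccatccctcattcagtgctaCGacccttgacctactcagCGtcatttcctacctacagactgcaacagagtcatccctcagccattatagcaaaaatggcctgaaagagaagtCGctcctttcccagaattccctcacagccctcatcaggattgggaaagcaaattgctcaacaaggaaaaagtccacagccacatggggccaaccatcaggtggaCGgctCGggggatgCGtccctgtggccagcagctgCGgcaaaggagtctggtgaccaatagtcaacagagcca
Rnf39 (chr17:36942801-36943100, plus strand, contrast with RYBP): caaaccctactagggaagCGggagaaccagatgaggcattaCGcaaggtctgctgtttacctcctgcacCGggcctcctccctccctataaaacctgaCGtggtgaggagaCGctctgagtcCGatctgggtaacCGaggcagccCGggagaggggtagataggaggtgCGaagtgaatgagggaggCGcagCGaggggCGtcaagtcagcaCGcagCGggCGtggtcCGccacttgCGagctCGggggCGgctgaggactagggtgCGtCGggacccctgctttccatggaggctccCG

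The window of Prr22 held 5 CpGs, a ratio of observed to expected CpG (o/e) of 0.189, and that of Slc1a7 held 7 (o/e 0.308). The window of Cldn14 also held 7 (o/e 0.344), in contrast to 22 in that of Rnf39 (o/e 0.748). Pacsin3 shows that CpG-rich starts occur in the group too, with 24 CpGs and an o/e of 0.662. Over the 254 windows touched by wild-type-only peaks without RYBP, the median o/e was 0.342 (quartiles 0.220 and 0.551). It was 0.380 under genic peaks without RYBP that were kept in the knockout (277 windows), 0.732 under wild-type-only peaks with RYBP (260 windows), 0.729 under kept peaks with RYBP (777 windows) and 0.377 at the 11873 windows with no peak in any list. An o/e of 0.6 or more, a usual bound for a CpG island, was reached by 22.4% of the windows (57 of 254) as against 68.8% under wild-type-only peaks with RYBP, a difference of -46.4 percentage points (interval -53.5 to -38.3). Of all windows 49.0% reached it (difference -26.6 points, interval -31.4 to -21.0), and of windows with no peak in any list 36.0% did (difference -13.6 points, interval -18.3 to -7.98). Against kept peaks without RYBP the difference was -2.11 points (interval -9.26 to 5.14), which counting error covers.

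**Figure D1:**
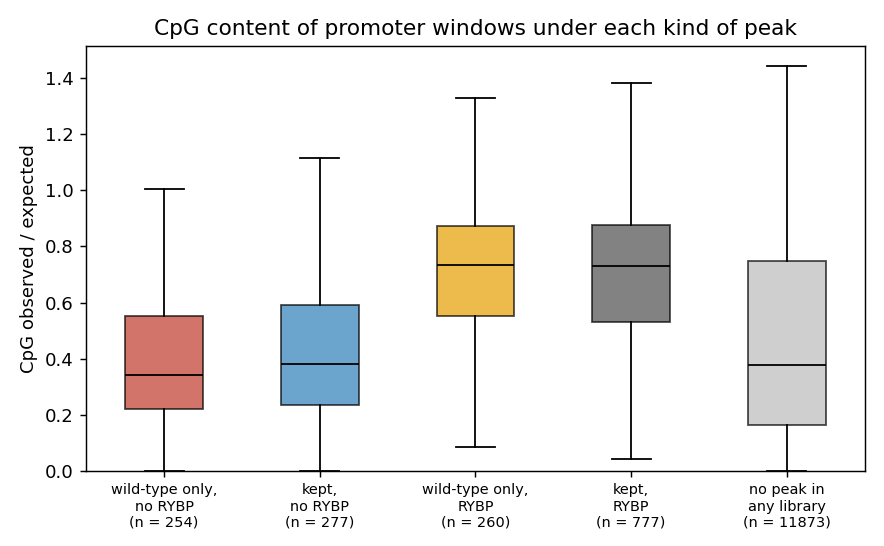
CpG observed over expected (vertical axis, a ratio without unit) of 300-base promoter windows, grouped by the kind of genic H2AK119ub peak that touches them or by the absence of any peak. Boxes span the quartiles with the median as a line and whiskers reach the last value within 1.5 box lengths; the medians without RYBP are 0.342 and 0.380, and those with RYBP are 0.732 and 0.729.

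The windows were searched on both strands for 3 short motifs, and a match describes letters only. The E-box CACGTG was in 7.09% of the 254 windows as against 8.06% of all 18050 windows. It is the motif found in the window of Slc1a7. The E2F-type sequence GCGGGAA was in 2.76% as against 6.04% of all windows, and the T-box sequence TCACACCT in 2.76% as against 1.12%. Each of the last 2 shares rests on 7 windows (interval 1.34 to 5.58 for both). CACGTG reads the same on both strands, and none of the 3 contains another.

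The wild-type-only peaks were narrow. Their widths ran from 412 to 4980 bp with quartiles of 898, 1094 and 1420.5 bp, and together they covered 7.49 Mb. The 4212 genic peaks without RYBP that the knockout kept had a median of 1567 bp, the 962 wild-type-only peaks with RYBP one of 1244.5 bp and the 2571 kept peaks with RYBP one of 2063 bp. Absence followed width: among all 10306 genic peaks without RYBP, split into 4 width classes of equal size, no knockout peak overlapped 2062 of the 2579 narrowest (412 to 961 bp), 68.2% of the second class, 58.6% of the third and 29.7% of the widest (1727 to 4989 bp). Width thus moved with the absence that made the choice, and its part in the results was not tested except where values matched on width are given.

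**Figure D2:**
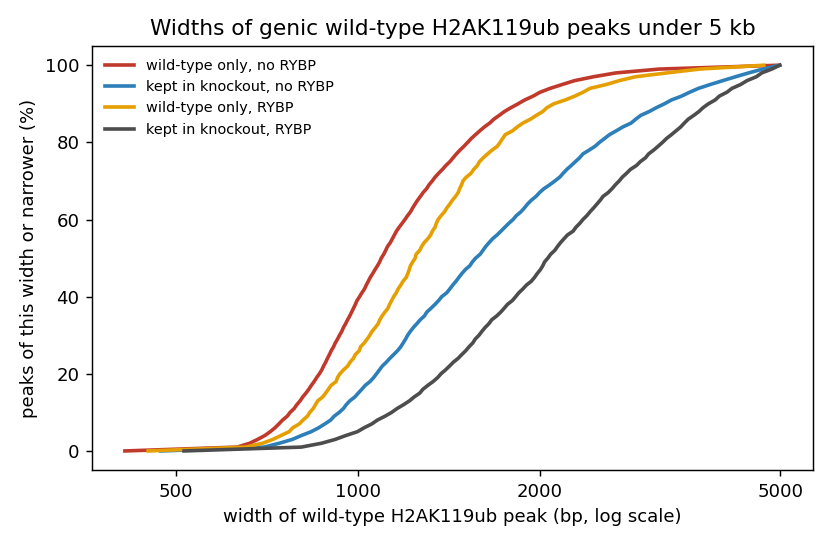
Share of peaks of a given width or narrower (vertical axis, percent) against peak width (horizontal axis, bp, log scale) for 4 kinds of genic wild-type H2AK119ub peaks under 5 kb. The line of the 6094 wild-type-only peaks without RYBP lies to the left of the other 3, with a median of 1094 bp.

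The widest wild-type-only peak was 4980 bp, over an end of Garem1, an adaptor of growth factor receptor signalling. The next were 4834 bp in Trpm5, a taste-cell cation channel, and 4811 bp at an end of Csnk1g2, a casein kinase. Macrod1, a mitochondrial ADP-ribose hydrolase, and Flrt1, an adhesion protein whose gene lies within it, shared 2 of the 10 widest (4622 and 4576 bp), and Macrod1 held a further one of 4634 bp. Kif21b, a neuronal kinesin, held one of 4564 bp with a RYBP peak 183 bp away. The knockout peak nearest to these 10 lay between 600 and 34217 bp away.

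The limits of the rule can be read from the peaks beside them. Within 500 bp under the width limit there were 12 of the peaks, and 4 otherwise eligible peaks were 5000 bp or wider. A knockout peak came within 100 bp of 170 of the 6094 without touching them, while 110 genic peaks without RYBP were left out because a knockout peak overlapped them by 1 to 100 bp. Genic peaks without RYBP that counted as kept although knockout peaks covered under 50% of their width numbered 1360, these 110 included. For RYBP, 52 had a peak within 100 bp and 57 wild-type-only peaks were left out for an overlap of 1 to 100 bp. Among the nearest misses were those in Heyl, a Notch target, where the knockout peak directly adjoined the wild-type peak, and in Abcc3 and Osbpl5, where the gap was 1 bp. At the other extreme, the peaks at Alx1, Cdkn2a and Myf5 had no knockout peak within 3764182, 3758916 and 2967665 bp. Alx1 and Myf5 encode developmental transcription factors and Cdkn2a encodes the p16 and p19 tumour suppressors; a RYBP peak lay within 500 bp of the Alx1 peak.

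Most of these peaks lay inside genes rather than at their ends. The centre was in a gene body in 5628 cases and only in the 2 kb flank in 466. Within 2 kb of either end lay 24.6% (1499 of 6094, interval 23.5 to 25.7), while 13.6% of the 927 Mb of gene territory lies that close to an end. After the same peaks were moved by 100 kb to either side, 19.1% and 20.1% of those still genic were near an end. Of the kept peaks without RYBP 25.2% were, a difference of -0.568 points (interval -2.27 to 1.12) that counting error covers. Wild-type-only peaks with RYBP had 73.5%, a difference of -48.9 points (interval -51.8 to -45.8), and within 4 width classes of equal size it ran from -53.6 to -44.6 points.

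With the strand known for 79.9% of the eligible genes, starts and ends could be told apart. Only genes of 10 kb or more with a known strand were used, and only peaks in a single gene or its flanks. These limits take out peaks near the ends of short or adjoining genes. The shares are therefore not those of the whole group. Of 4010 such wild-type-only peaks without RYBP, 7.31% lay within 2 kb of the gene start and 8.03% within 2 kb of the gene end. The other 84.7% lay farther inside. Of 519 such wild-type-only peaks with RYBP, 58.4% lay at the start and 5.59% at the end. In genes of 10 kb or more cut into 10 equal parts, the share of the wild-type-only peaks without RYBP ran from 7.84% in the second part to 13.6% in the last, with 10.2% in the first (n = 3786). Kept peaks without RYBP had a like profile with 12.5% in the first part and 12.7% in the last (n = 2480), and wild-type-only peaks with RYBP had 52.0% in the first part (n = 373).

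**Figure D3:**
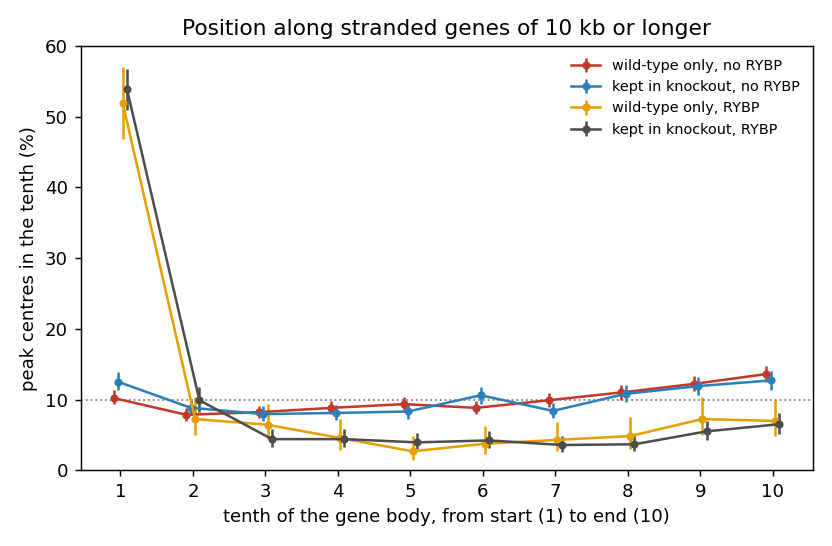
Share of peak centres in each of 10 equal parts of the gene body from start to end (horizontal axis). The vertical axis is in percent, with Wilson 95% intervals as bars. Shown are 4 kinds of genic wild-type H2AK119ub peaks that lie in a single stranded gene of 10 kb or longer. The dotted line marks an even spread. Peaks without RYBP stay near 10% throughout, between 7.84% and 13.6% for the wild-type-only ones, while wild-type-only peaks with RYBP reach 52.0% in the first part.

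Peaks centred within 500 bp of a gene end gave the following examples, widest first. After Garem1 came one of 4233 bp, where Dus3l, a tRNA-modifying enzyme, meets Prr22, then 3860 bp at Myo18a, an unconventional myosin, and 3184 bp at Pacsin3, which had no knockout peak within 112756 bp. Others lay at Mgat5b, a glycosyltransferase of the brain (2949 bp), Astl, the egg protease ovastacin (2495 bp), and Sctr, the secretin receptor (2389 bp). Several of these ends belong to more than 1 gene: Adck5 meets Cpsf1, a subunit of the polyadenylation complex (2465 bp), Arhgef25 meets Dtx3 (2453 bp), and Anapc11 lies beside Npb and Pcyt2 (2427 bp).

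The surroundings of the peaks differed from those of kept peaks. A RYBP peak lay within 10 kb of 30.2% of the wild-type-only peaks without RYBP and of 38.3% of the kept peaks without RYBP, a difference of -8.05 points (interval -9.91 to -6.18) that was -7.72 points when matched on width. For wild-type-only peaks between genes the share was 23.2%, which is 7.05 points lower than in genes (interval 5.23 to 8.83). Another wild-type H2AK119ub peak lay within 2 kb of 52.7%, as against 74.7% of the kept peaks (difference -22.0 points, interval -23.8 to -20.2, and -18.6 points when matched on width). The peaks absent in the knockout thus stood more often alone, and the median gap to the next wild-type peak was 1749.5 bp.

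The knockout had H2AK119ub nearby in most places. The nearest knockout peak lay at a median of 4283.5 bp (quartiles 1197.5 and 15990 bp), within 1 kb of 22.0% and within 10 kb of 67.2% (4097 of 6094). For comparison, the nearest RYBP peak lay at a median of 22752.5 bp. As a description with no test, since absence in the knockout made the choice, 55.1% had a kept wild-type peak within 10 kb (80.4% of the kept peaks did), 66.0% had another unkept one (68.5%) and 34.5% had a knockout peak that met no wild-type peak (44.6%).

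The peaks were spread over many places, with some dense runs. Joined across gaps of up to 10 kb, they formed 3619 runs, of which 2351 were single peaks (38.6% of the 6094), and 146 runs of 5 or more held 957 peaks (15.7%). The longest series had 22 peaks in 101434 bp over Chd5, a neuronal chromatin remodeller, and Kcnab2, a potassium channel subunit (chr4:152352750-152454183). Cdh23 had 16 in 94702 bp, Macrod1 and Flrt1 had 15 in 68238 bp, and Hmcn2, an extracellular matrix protein, had 13 in 84564 bp. The densest of these was in Rbfox3, with 13 in 33446 bp. Chd5 and Hmcn2 were chosen after their values were seen.

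Per Mb of gene territory the number ran from 2.27 on chromosome 3 and 2.58 on chromosome 13 to 10.0 on chromosome 11 and 11.3 on chromosome 4, with 6.57 over all eligible autosomes. Chromosomes 11 and 4 were also rich in kept peaks without RYBP, with 9.81 and 8.51 per Mb as against 4.54 overall. The share of these genic peaks absent in the knockout, a measure the choice used, ran from 44.4% on chromosome 15 and 50.6% on chromosome 11 to 69.1% on chromosome 10 and 69.4% on chromosome 16.

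The 6094 peaks fell in 2919 host genes, 15.8% of the 18493 eligible protein-coding genes. A single peak was found in 1644 hosts (56.3%), 2 to 4 in 992, 5 to 9 in 204 and 10 or more in 79, and these 79 held 1167 of the peaks (19.1%). More than 1 host was counted for 402 peaks, where genes overlap or adjoin. Hosts had a median length of 24859 bp as against 17428 bp for all eligible genes. This was not particular to them, since genes with a kept peak without RYBP had a median of 24557 bp. The 1287 hosts in which no wild-type peak was kept had one of 17496 bp, close to that of all genes. In 4 classes of equal size by gene length, 7.89%, 16.4%, 17.5% and 21.3% of the genes were hosts, from the shortest class to the longest. The number of peaks per Mb was 14.1 in the shortest class, 15.6 in the second and 10.4 in the third, and it was lowest in the longest. Kept peaks without RYBP had a like order, with 9.25, 11.6, 7.87 and 3.31 per Mb from the shortest class to the longest.

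Although the peaks themselves carried no RYBP, their genes often had it at an end. A RYBP peak lay within 2 kb of a gene end in 50.3% of the hosts (1468 of 2919), and in 31.9% of the 15574 eligible genes that hosted none, a difference of 18.4 points (interval 16.4 to 20.3). Of the genes with a kept peak without RYBP 52.7% had one, a difference of -2.46 points (interval -5.32 to 0.410) that counting error covers, and these 2 sets share genes. Within the 4 classes of gene length the hosts were above the genes that hosted none by 12.7, 15.0, 16.3 and 16.4 points. Of the 1287 hosts in which no wild-type peak was kept, 35.6% had RYBP at an end, 3.67 points above genes that hosted none (interval 1.00 to 6.43).

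In most hosts the knockout still had some H2AK119ub. Another wild-type peak was kept in 55.9% of the hosts (1632), and some knockout H2AK119ub lay in the gene or its flanks in 66.7% (1946). Of all eligible genes, 18.3% had a kept wild-type peak and 23.8% had some knockout H2AK119ub. In 195 hosts (6.68%) the knockout peaks covered more sequence than the wild-type peaks. Over all eligible genes with a wild-type peak, 33.2% kept none. These values come from the comparison that made the choice and are given as a description.

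The 10 genes with the most of these peaks were long, from 176700 bp (Eya2) to 802246 bp (Camta1). Rbfox3, the neuronal splicing regulator recognised by the NeuN antibody, held 45: of its 93 wild-type H2AK119ub peaks the knockout kept 48, and peaks covered 168488 bp in wild-type cells, 97223 bp in the knockout and 4479 bp for RYBP. Camta1, a calmodulin-binding transcription activator, also held 45, with 17 of 63 wild-type peaks kept and 86278 bp in the wild type as against 26970 bp in the knockout. In both genes the knockout list had peaks along the gene body between those that were absent. Shank2, a scaffold of excitatory synapses, held 44, with 21 of 65 kept and 104638 as against 31365 bp. Cdh23, the cadherin of hair-cell tip links, held 40, with 25 of 65 kept and 98655 as against 50722 bp.

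Prdm16, a transcriptional regulator of brown fat and of stem cells, held 31 and kept the largest number, 53 of 85 wild-type peaks, with 200428 bp in the wild type as against 107893 bp in the knockout. Igsf21, a synaptic immunoglobulin-domain protein, held 30 (25 of 55 kept, 98954 and 41469 bp), and Eya2, a transcriptional coactivator and phosphatase of organ development, held 28 (13 of 41 kept, 61019 and 17761 bp). Of these 10 genes, Eya2 had the lowest ratio of knockout to wild-type covered length, 0.291. Sdk2, a retinal adhesion molecule, and Pebp4 held 24 each, with 29 of 53 kept in Sdk2 and 8 of 32 in Pebp4. Gabbr2, a subunit of the GABA-B receptor, held 22, with 12 of 34 kept. Pebp4 was the one of these 10 with no RYBP peak in the gene or flanks.

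Set per length, the order of these genes was different. Eya2 had 15.8 of the peaks per 100 kb and Igsf21 13.6, while Camta1 had 5.61 and Gabbr2 6.68. Median widths within a gene ran from 914.5 bp in Pebp4 to 1323 bp in Prdm16. The median gap to the nearest knockout peak ran from 1027 bp in Sdk2 to 6795.5 bp in Pebp4, and 15 of the 31 peaks of Prdm16 had a knockout peak within 1 kb as against 2 of 24 in Pebp4.

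Among the 79 genes with 10 or more, the ratio of knockout to wild-type covered length ran from 0.0415 to 1.58 with a median of 0.476, beside 30.6 and 45.9 Mb for the whole lists, and it was over 1 in 1 gene. These genes were taken for holding many peaks absent in the knockout, so a low ratio follows from the choice and nothing is read from it. The genes at the ends of that range were chosen after their values were seen. Cul9, a cullin of ubiquitin ligases, had H2AK119ub over 16365 bp in wild-type cells and 679 bp in knockout cells, and Lmf1, a lipase maturation factor, 14471 and 759 bp. Prex1, a Rac exchange factor, had 25064 and 2213 bp. Cdh4, R-cadherin, was the gene above 1, with 38911 bp in the wild type as against 61660 bp in the knockout, where 27 knockout peaks met no wild-type peak. RYBP lay at an end of 55 of the 79 (69.6%), whose median length was 150731 bp. In the longest class of genes 60.7% of all hosts and 44.3% of the genes that hosted none had it there.

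In 973 hosts (33.3%) the knockout had no H2AK119ub anywhere in the gene or its flanks, and 332 of these (34.1%) had RYBP at an end, beside 34.8% of all eligible genes. Only 240 of the 973 held 2 or more of the peaks. The examples with the most sequence were chosen after their values were seen. Ube3b, a ubiquitin ligase, had 7 of them and 11314 bp of H2AK119ub in the wild type beside a RYBP peak of 1057 bp at its start. Ehmt2, the histone H3 lysine 9 methyltransferase G9a, had 3 and 9706 bp with 1261 bp of RYBP, and Ppfia3, a presynaptic scaffold, had 6 and 8372 bp. Unc13d, a vesicle priming factor of cytotoxic cells (6987 bp), Sgsm1 (6626 bp) and Rela, a subunit of NF-kappaB (5769 bp), had no RYBP peak. Most of the 973 had a single peak, so the absence rests on few positions per gene.

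The gene families are described by the share of eligible genes that were hosts, beside 15.8% of all eligible genes. Families of long genes have more room for a peak, so median gene length and peaks per Mb are given with the shares (length first, beside 17428 bp and 6.90 per Mb over all genes), and genes that overlap share peaks. Kept peaks without RYBP stood at 4.81 per Mb over all genes. Several families dense in the wild-type-only peaks were dense in kept peaks too. Others were not, with 4.66 kept peaks per Mb in pluripotency genes and 5.51 in germline and meiosis genes. Channels of excitable cells stood high in this order. Voltage-gated calcium and sodium channels had 21 hosts of 36 (58.3%, interval 42.2 to 72.9), at a median length of 96638.5 bp and 13.8 peaks per Mb. They were also rich in kept peaks, with 20.1 per Mb as against 4.81. Cacna2d2, an auxiliary calcium channel subunit, held 19 (19 of 38 kept, 51482 bp in the wild type as against 30926 bp in the knockout). Cacna1s, the calcium channel of skeletal muscle, held 7 (6 of 13 kept), and Scn8a, a neuronal sodium channel, 5 (16 of 22 kept).

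Potassium channels had 28 hosts of 82 (34.1%, interval 24.8 to 44.9), at 37426 bp and 9.45 per Mb. They were also rich in kept peaks without RYBP, with 9.35 per Mb as against 4.81 over all genes. Kcnab2 held 18 with 8 of 27 kept. Kcnq1, a cardiac potassium channel in an imprinted domain, held 12, and its H2AK119ub covered 186739 bp in the wild type as against 108549 bp in the knockout, with 19 of 31 kept. Kcnc1, a channel of fast-spiking neurons, held 8. Neurotransmitter receptors were nearer to the share of all genes: glutamate and GABA receptors had 10 hosts of 38 (26.3%, interval 15.0 to 42.0, 107174.5 bp, 5.73 per Mb), led by the kainate receptor Grik3 with 15 (4 of 19 kept), and the acetylcholine, serotonin, dopamine and adrenergic receptors 10 of 44 (22.7%, interval 12.8 to 37.0, 17099.5 bp, 7.30 per Mb), with 3 each in Chrm4 and Htr6.

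Adhesion and matrix genes followed, apart from the adhesion G protein-coupled receptors. These had 3 hosts of 19 (15.8%, interval 5.52 to 37.6) at 99229 bp, the share of all genes. They had 2.26 of the peaks and 6.22 kept peaks without RYBP per Mb. The cadherin superfamily had 52 hosts of 90 (57.8%, 96188.5 bp, 13.2 per Mb with shared peaks counted in each gene), but 42 of these are clustered protocadherins, whose overlapping gene models on chromosome 18 share 21 distinct peaks. Outside the clusters 10 of 33 were hosts (30.3%, interval 17.4 to 47.3), among them Cdh23 and Cdh4. Kept peaks without RYBP reached 15.7 per Mb in the whole superfamily, as against 4.81 over all genes. Collagen chains had 19 hosts of 38 (50.0%, interval 34.8 to 65.2) at 106452.5 bp and 13.1 per Mb, beside 10.2 kept peaks without RYBP per Mb. Col13a1, a transmembrane collagen, held 11, and its H2AK119ub covered 22871 bp in wild-type cells and 5932 bp in knockout cells. Integrins and laminins had 16 of 36 (44.4%, 63084.5 bp, 10.4 per Mb), with Itga9 holding 6. Lamb3, a laminin chain of skin, held 4, its only wild-type peaks (5233 bp). The knockout had 3 other peaks in Lamb3 that met no wild-type peak (2100 bp). Of the ADAM and ADAMTS proteases 11 of 42 were hosts (26.2%, 36776.5 bp, 6.20 per Mb), and Adamts14 had 8, with 14434 bp in the wild type as against 2716 bp in the knockout. Synaptic adhesion and scaffold genes had 11 of 30 (36.7%, 156245 bp, a density close to that of all genes), led by Shank2 and by Dlgap4, another postsynaptic scaffold, with 12.

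Guidance and growth factor receptors were common hosts too. Axon guidance genes had 25 of 57 (43.9%, interval 31.8 to 56.7), at 104924 bp and 6.64 per Mb, and 19 of the 25 had RYBP at an end. Slit1, a repellent ligand, held 12 (4 of 16 kept), and Unc5b, a netrin receptor, and Ephb2, an ephrin receptor, held 11 each. Receptor tyrosine phosphatases and kinases had 24 of 43 (55.8%, interval 41.1 to 69.6) at 104358 bp and 5.47 per Mb, below the density over all genes. Ptprf held 9 and had 1 of 10 wild-type peaks kept (13755 and 1872 bp), Ptprs held 8 with 5 of 15 kept, and Ntrk2, the receptor of BDNF, held 7. Myosins and dyneins, motor proteins with long genes, had 24 of 51 (47.1%, 108997 bp, 9.35 per Mb), beside 9.61 kept peaks without RYBP per Mb.

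Among signalling pathways, Notch and Hedgehog genes had 14 hosts of 32 (43.8%, interval 28.2 to 60.7) at 21028 bp and 8.86 per Mb, beside 8.02 kept peaks without RYBP per Mb. Each held few: Maml3, a coactivator of Notch, had 4, Mfng, which glycosylates Notch, 3, and the receptor gene Notch4 2. Wnt pathway genes had 15 of 51 (29.4%) at 22906 bp and 14.2 per Mb, led by Lgr6, an R-spondin receptor, with 11 (3 of 14 kept). Kept peaks without RYBP were dense in Wnt pathway genes too, with 18.3 per Mb as against 4.81 over all genes. TGF-beta and BMP genes had 13 of 57 (22.8%, 30608 bp, 11.7 per Mb). The ligand gene Bmp7 held 11 and kept 2 of 14, with 28765 bp in the wild type as against 7903 bp in the knockout, and the coreceptor gene Tgfbr3 held 6 and kept 1 of 7.

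Transcription factor genes, the best known Polycomb targets, are shorter. Homeobox and Pax genes had 22 hosts of 90 (24.4%, interval 16.7 to 34.2) at 7298 bp, but 22.4 of the peaks and 21.6 kept peaks per Mb of gene, both well over the values of all genes, and 82 of the 90 had some wild-type H2AK119ub. Tshz2 held 18, Cux2 16 and Pax5, a B-cell factor, 10. Sox, T-box, forkhead and GATA genes had 22 of 71 (31.0%, interval 21.4 to 42.5, 9334 bp, 12.1 per Mb). Kept peaks without RYBP were denser there, at 13.5 per Mb. Runx1, matched with this list, held 5 and kept 13 of 18, and Tbx5, a heart and limb factor, held 6 and kept 6 of 12. Foxp4 held 6 and kept 1 of 8.

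Of 25 pluripotency genes 3 were hosts (interval 4.17 to 30.0%), an interval that includes the share of all genes, at 13736 bp and 16.3 per Mb. Esrrb, an orphan receptor that sustains self-renewal, held 12 of the peaks: 5 of its 18 wild-type peaks were kept, and covered length was 31314 bp in the wild type, 8525 bp in the knockout and 4801 bp for RYBP. Nr5a2 and Lefty1 held 1 each, and in both it was the only wild-type peak (2507 and 1560 bp). Pou5f1, Sox2, Klf4, Tdgf1 and Dppa5a held none and had no H2AK119ub in either genotype. Of fibroblast and feeder genes, which mark cells that grow under the culture, 9 of 22 were hosts (40.9%, interval 23.3 to 61.3). Their median length was 29825 bp and their density 26.7 per Mb, the highest of the families listed here. Kept peaks without RYBP were dense in these genes too, with 19.2 per Mb as against 4.81 over all genes. Of the fibroblast and feeder genes, Pdgfrb held 5 (5 of 10 kept), Col1a1 1 (7 of 8 kept) and Thy1 1, and Col3a1, Fn1, Vim and S100a4 held none. A peak list gives no expression level, and the part of feeder cells in these peaks was not tested.

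Polycomb subunits had 5 hosts of 29 (17.2%, interval 7.60 to 34.5, 31594 bp, 4.38 per Mb), of which Phf19, which recruits PRC2, and Phc2, a subunit of canonical PRC1, held 4 each and Phf1 1. DNA and histone methyltransferases had 11 of 51 (21.6%, 60409 bp, 13.0 per Mb), and 31 of the 48 peaks of this list were in Prdm16. Kept peaks without RYBP reached 16.3 per Mb in the list, as against 4.81 over all genes. Dnmt3a, the de novo DNA methyltransferase, held 3 and had no other wild-type peak and no knockout mark. DEAD and DEAH box helicases, the family of DDX5, had 6 of 43 (14.0%, interval 6.56 to 27.3, 27813 bp, 7.20 per Mb). Ddx23, a splicing helicase, held 3, Dhx16 1 and Dhx34, of nonsense-mediated decay, 3. Zinc finger genes named Zfp had 27 of 346 (7.80%, interval 5.42 to 11.1, 18104 bp, 3.63 per Mb), below the share of all genes. Zfp516 held 5 and had no knockout H2AK119ub beside 10712 bp in the wild type.

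Imprinted genes had 7 hosts of 24 (29.2%, interval 14.9 to 49.2, 32416 bp, 11.1 per Mb), with 3 in Grb10 and 2 in Igf2, a fetal growth factor. Germline and meiosis genes had 7 of 28 (interval 12.7 to 43.4%, 39390.5 bp, 15.0 per Mb), where Piwil1, a piRNA-binding protein, held 6 and kept 1 of 7. Solute carriers had 78 of 324 (24.1%, interval 19.7 to 29.0, 28360 bp, 7.85 per Mb), with 7 each in Slc13a3 and Slc1a7. The next lists are of short genes, and in the shortest length class of all genes 7.89% were hosts. Mitochondrial respiratory chain genes, with a median of 7444.5 bp, had 3 of 86 (3.49%, interval 1.19 to 9.76, 2.78 per Mb), of which Ndufa4l2 and Cox4i2 are isoforms of restricted expression. The list by ribosomal protein names had a median of 3572 bp and 2.30 per Mb, and its 3 hosts, Rps6ka2, Rps6ka4 and Rps6kl1, are S6 kinase relatives, and of the 81 genes of that list without an Rps6k name none was a host, which allows a share of up to 4.53%. Olfactory and vomeronasal receptors, with a median of 951 bp, had 6 of 1365 (0.440%, interval 0.202 to 0.956, 0.561 per Mb), among them Olfr70 and Olfr71, which are neighbours on chromosome 4.

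**Figure D4:**
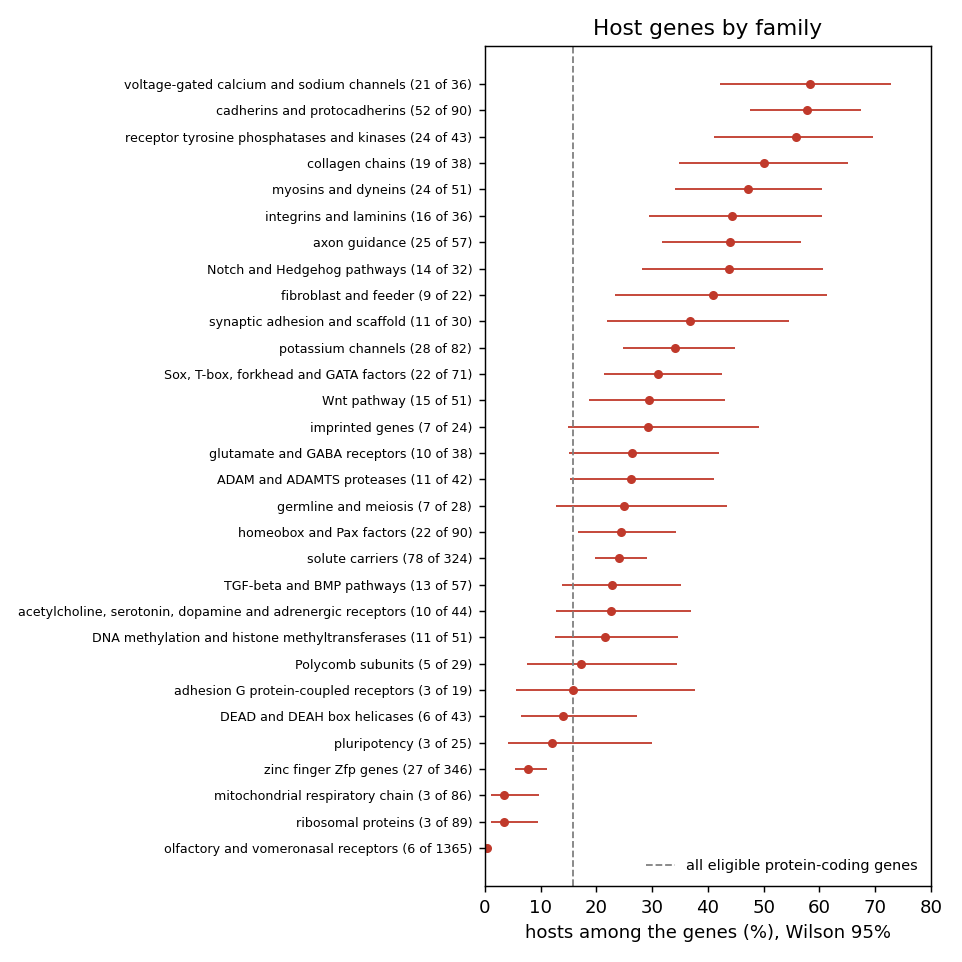
Share of eligible genes that hold a wild-type-only peak without RYBP (horizontal axis, percent, points with Wilson 95% intervals as bars) for gene families and lists, with hosts and eligible genes in parentheses; the dashed line marks 15.8% of all eligible genes. Calcium and sodium channels (58.3%) are at the top and olfactory and vomeronasal receptors (0.440%) at the bottom.

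MicroRNA genes within host genes were also met. Of 838 microRNA hairpins on the eligible autosomes, 18 were overlapped by these peaks, which cover 7.49 Mb beside 927 Mb of gene territory. Whether 18 is more than position alone would give was not tested. The best known of them were chosen after the list was seen: Mir26b in Ctdsp1, under a peak of 1158 bp (chr1:74393882-74395039), and Mir346 in the glutamate receptor gene Grid1, under one of 1408 bp (chr14:34894274-34895681). Mir218-2 in Slit3 lay partly under a peak of 783 bp. Their mature sequences from RefSeq are shown to identify the products, with the seed (bases 2 to 8) in capitals. The seeds of these microRNAs differ from one another.

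miR-26b-5p: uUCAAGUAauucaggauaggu
miR-346-5p: uGUCUGCCcgagugccugccucu
miR-218-5p: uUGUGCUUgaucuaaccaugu

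The nearest knockout peak was 8852 bp from the peak over Mir26b, 386 bp from the one over Mir346 and 75538 bp from the one over Mir218-2. Only 14 of the 21 bases of miR-218-5p were under the peak, whose end falls within the hairpin.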

How the data were processed

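The submitters' processing notes name Bowtie2 (2.2.5), MACS (1.4) and the build mm10. What each tool did, the threshold for a peak and whether inputs served as controls is not given in the sources used here. For each library, the authors deposited 1 peak list, with positions in base pairs and a score column that is 0 for every peak, so the score was not used and no height or fold enrichment enters. Peaks were called per library, and a shallower library gives fewer and narrower peaks.

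Positions were counted from 1 for printing. Overlap meant 1 bp or more. Genes were the protein-coding genes of the RefSeq table of GRCm38.p6, of which 18493 are eligible and 14779 have a strand from the promoter table. Exon structure and a genome were not at hand, so exon and intron are not given. Background for position was the gene territory and the peaks moved by 100 kb. Shares have Wilson intervals at 95% and differences Newcombe intervals. Width matching averaged differences over 4 width classes of equal size. Python 3.11.15, numpy 2.4.6 and pandas 2.3.3 were used, and the code was tested on simulated data.

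The peaks, families and lists were chosen with earlier results of these data known. Named genes were, without predicted genes, the 10 hosts with the most peaks, the 10 widest peaks, the 10 widest centred within 500 bp of a gene end, up to 3 hosts per family by covered length, and the 5 peaks nearest to and the 5 farthest from a knockout peak. Ddx5 and Rybp were always named. The 2 windows nearest to a median CpG ratio were taken from windows wholly inside a peak, off chromosome 18 and without predicted genes. A few genes this takes, and 1 family, are not reported here. The 9 alternatives, such as other overlaps, widths, flanks and chromosomes, are in the closing section.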

Additional observations from a re-analysis of the deposited data

How the results depend on the processing

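The 8 summary values were recomputed under 9 alternatives. Of the 72 values, 45 stayed within the counting interval of the reported value, or within 1.5 times a count, and 27 moved. With an overlap of at least 50% of the wild-type peak required, the absent share was 66.8% in place of 59.1%, the share near a gene end 27.9% in place of 24.6%, hosts with another kept peak 48.0% in place of 55.9%, hosts with RYBP at an end 54.5% in place of 50.3%, the median width 1189 bp in place of 1094 bp and the share with a knockout peak within 10 kb 73.2% in place of 67.2%. With knockout and RYBP peaks extended by 500 bp the absent share was 52.4%, hosts with RYBP at an end 48.5% and a knockout peak within 10 kb 62.8%. With wild-type peaks of at least 1 kb alone there were 3704 peaks in place of 6094, with an absent share of 50.8%, 25.7% near a gene end, 58.0% of hosts with another kept peak, a median width of 1321 bp and 70.3% with a knockout peak within 10 kb. With at least 1 kb in all 3 lists these values were 66.6%, 25.9%, 50.1%, 1360 bp and 55.4%, and hosts with RYBP at an end were 48.4%. Without the gene flanks 17.7% lay near a gene end. With flanks of 5 kb it was 22.9%, and 58.6% of hosts had another kept peak. On all autosomes and X the absent share was 57.5% and the median width 1117 bp. With no upper limit on width the absent share was 58.1%. No paired analysis was possible because each group has 1 library and the labels carry no replicate numbers, and for the same reason no replicate could be left out. Depth is unknown, so which absences are below detection cannot be told from these lists.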
